A study of Mus musculus with 10 samples.

Results

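The transcripts described here are those of the mouse mitochondrial genome, taken as every gene of the GENCODE mouse annotation whose symbol starts with mt-. The annotation lists 37 of them, made up of 13 protein genes, 2 rRNA genes and 22 tRNA genes. The deposited table held 31, namely all 13 protein genes, both rRNA genes and 16 tRNA genes, among 51456 genes in all. The other 6 tRNA genes (mt-Ty, mt-Td, mt-Tk, mt-Tg, mt-Th and mt-Ts2) were not analysed here. The genes were taken by symbol and not by level, though earlier results of these data were known.

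The study sorted bone marrow cells of mice by flow cytometry and sequenced their RNA. One group was labelled leukaemia stem cells (LSC), lineage-negative, Sca-1-negative cells with c-Kit, CD34 and CD16/32 on the surface, from mice whose acute myeloid leukaemia was driven by the MLL-AF9 fusion gene. The other group was labelled haematopoietic stem cells (HSC), CD48-negative and CD150-positive cells of the lineage-negative, Sca-1-positive and c-Kit-positive gate, from wild-type C57BL/6J mice. Each group had 5 libraries, numbered 1 to 5, and values were in FPKM, that is fragments counted per length of gene and per size of library. The labels give no strain, promoter or vector for the leukaemia and no age. They do not state that each library had a mouse of its own, and p-values therefore cover only the spread among these libraries, which may be technical.

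Mitochondrial DNA is a small circle that is transcribed from both strands into long RNAs. Transfer RNAs lie between most of its other genes and are cut out by dedicated nucleases, which frees the mRNAs and rRNAs on either side. The 13 proteins are core subunits of respiratory complexes I, III, IV and V, whereas all enzymes of mitochondrial transcription, RNA processing and translation come from nuclear genes. Haematopoietic stem cells are commonly described as relying little on oxidative phosphorylation, and acute myeloid leukaemia stem cells as depending on it.

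The depth estimated from steps in the low values ran over 16800000 to 35270000 fragments in the LSC-labelled libraries and 13280000 to 27710000 in the HSC-labelled ones. Of 10 genes that mark the sort or the labels, 4 were called higher and 5 called lower in the LSC-labelled group. Several ran against the labels. Ly6a, which encodes Sca-1, averaged 74.2 ± 24.8 FPKM in the LSC-labelled libraries and 0.920 ± 0.917 FPKM in the HSC-labelled ones, and Hoxa9, a target of MLL fusions, averaged 7.06 ± 0.945 FPKM in the LSC-labelled and 57.0 ± 7.58 FPKM in the HSC-labelled libraries (SD, n = 5 each). Slamf1, which encodes CD150, was also higher in the LSC-labelled libraries and Fcgr3, which encodes CD16, was lower. Cd34 went with the labels, at 88.0 to 97.4 FPKM in the LSC-labelled and 7.51 to 41.7 FPKM in the HSC-labelled libraries. Kit, part of both sorts, had 58.7 to 65.2 FPKM in the LSC-labelled and 7.22 to 28.6 FPKM in the HSC-labelled libraries. Cd48 had 139 to 169 FPKM in the LSC-labelled libraries. It had 98.6 to 147 FPKM in the HSC-labelled ones, whose sort was CD48-negative. The groups are therefore called by their labels throughout, and every direction below rests on labels that several of these genes go against. Markers of other marrow cells moved with the groups. In the LSC-labelled libraries 7 of 12 erythroid, 7 of 7 megakaryocyte and platelet, 7 of 8 neutrophil and 5 of 6 basophil and mast cell markers tested were called higher, and 5 of 8 monocyte and macrophage markers lower. Over all 13431 genes tested, 27.2% were called higher and 13.8% lower. Without the 3 shallowest libraries, 3 of the 8 neutrophil markers were called higher. The summed erythroid markers had 1500 to 3046 FPKM in the LSC-labelled libraries, against 1738 FPKM in HSC-labelled library 2 and 143 to 467 FPKM in the other HSC-labelled ones. The neutrophil markers summed to 1707 to 19650.0 FPKM in the LSC-labelled and 586 to 3195 FPKM in the HSC-labelled libraries. The bone and stroma markers summed to 246.8 to 1000.5 FPKM in the LSC-labelled and 1.81 to 7.55 FPKM in the HSC-labelled libraries, and 4 of the 6 were under 1 FPKM in every HSC-labelled library, so that they were tested only through their LSC-labelled values. The T and NK cell markers summed to 8.89 to 15.6 FPKM in the LSC-labelled and 1.25 to 4.03 FPKM in the HSC-labelled libraries, and the B cell markers to 35.8 to 56.7 FPKM in the LSC-labelled and 31.02 to 50.5 FPKM in the HSC-labelled ones. The sums of the megakaryocyte, basophil, stroma, T and NK cell and monocyte lists did not overlap between the groups, and no marker was at 0 in every library. Taken gene by gene, 29.8% of all genes tested did not overlap. The part of these markers in the results below was not tested.

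Sequences that bear on how these genes could be measured are given first. They are from GENCODE M21 (GRCm38), written 5′ to 3′ on the strand of the gene. A stretch of 4663 bases of chromosome 1 (chr1:24611535-24616197, minus strand) carries 7 annotated pseudogenes that match mt- genes in the same order as bases 6390 to 11042 of the mitochondrial genome. Gm28661, Gm10925, Gm28437 and Gm10222 were 100% identical to mt-Co2, mt-Atp6, mt-Co3 and mt-Nd4l over 681, 678, 783 and 294 aligned bases, which is 99% or more of each gene. Gm28438 matched mt-Nd3 at 99.71% over 345 bases, Gm28439 matched mt-Nd4 at 100% over 876 bases (63.6% of the gene), and Gm29216 matched mt-Co1 at 99.79% over 483 bases (31.3% of the gene). The whole of mt-Nd4l is shown as the example of how little separates a gene from its copy, with the last 3 bases, which Gm10222 lacks, in capitals.
mt-Nd4l: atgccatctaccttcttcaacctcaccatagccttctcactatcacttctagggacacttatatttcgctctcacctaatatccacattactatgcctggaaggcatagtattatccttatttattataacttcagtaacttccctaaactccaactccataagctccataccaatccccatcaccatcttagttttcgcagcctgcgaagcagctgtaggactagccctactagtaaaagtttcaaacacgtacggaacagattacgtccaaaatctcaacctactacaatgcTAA

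The start of mt-Nd3 and its copy differ by T3C, and a window of mt-Co1 and its copy by A1066T, where positions are counted from the first base of the mitochondrial gene and the first letter is the mitochondrial base. The differing base is in capitals.
mt-Nd3: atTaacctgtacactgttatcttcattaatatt
Gm28438: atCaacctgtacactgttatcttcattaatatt
mt-Co1: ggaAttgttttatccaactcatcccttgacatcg
Gm29216: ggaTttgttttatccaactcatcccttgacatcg

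The tRNA genes listed at the highest levels were mt-Tq and mt-Tp, for glutamine and proline. They are shown with mt-Ti, which overlaps the end of mt-Tq on the other strand, and mt-Tm, its neighbour on the other side, because the levels of these neighbours were far apart. The anticodon is in capitals. The genes lie at chrM:3772-3842 (mt-Tq, minus strand), chrM:15356-15422 (mt-Tp, minus strand), chrM:3706-3774 (mt-Ti, plus strand) and chrM:3845-3913 (mt-Tm, plus strand).
mt-Tq: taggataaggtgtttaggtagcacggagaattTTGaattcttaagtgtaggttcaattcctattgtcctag
mt-Tp: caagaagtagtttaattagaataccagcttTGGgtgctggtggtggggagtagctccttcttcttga
mt-Ti: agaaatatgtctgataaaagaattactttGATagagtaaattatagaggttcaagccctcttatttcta
mt-Tm: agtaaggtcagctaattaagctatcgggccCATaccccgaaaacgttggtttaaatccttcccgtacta

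The 13 protein genes fell into separate ranges of level that followed their place relative to the copied stretch. The 6 genes that lie inside it (mt-Co2, mt-Atp8, mt-Atp6, mt-Co3, mt-Nd3 and mt-Nd4l) were the 6 lowest protein genes in every library. No annotated copy of mt-Atp8 was found, and it is counted as inside by its position between mt-Co2 and mt-Atp6. The highest of them reached 46.7 to 73.5 FPKM in the LSC-labelled libraries and 26.1 to 77.9 FPKM in the HSC-labelled ones. The lowest of the 7 others stood at 279.8 to 467 FPKM in the LSC-labelled libraries and 211 to 259 FPKM in the HSC-labelled ones. Together the 6 made up 0.870% to 1.27% of the FPKM sum of the 13 genes in the LSC-labelled libraries and 0.794% to 1.39% in the HSC-labelled ones. How fragments that match both a gene and its copy were assigned is not given in the sources used here, so the levels of these 6 genes, and of the copied parts of mt-Co1 and mt-Nd4, are uncertain. The part of the copies in the low levels was not tested.

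**Figure D1:**
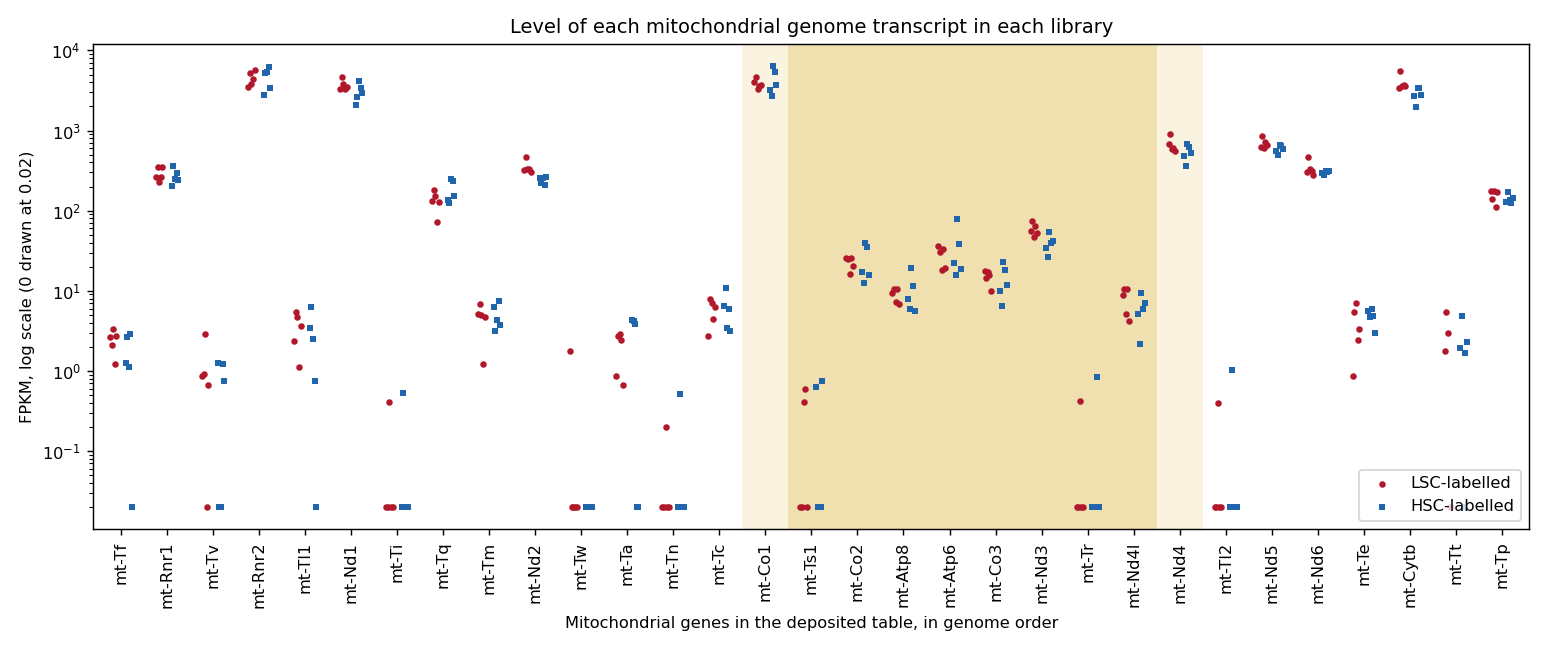
Level of the 31 mitochondrial genes in each library, in FPKM on a log scale with values of 0 drawn at 0.02, in genome order. Red circles are the 5 LSC-labelled and blue squares the 5 HSC-labelled libraries. Dark shading marks genes that by position lie inside the stretch copied on chromosome 1, and light shading genes partly inside it. Protein genes inside the dark shading stay at or below 77.9 FPKM in every library, and the other protein genes at or above 211 FPKM.

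The copies themselves were listed at levels like those of some of the genes they match. Gm10925 averaged 32.0 ± 8.26 FPKM in the LSC-labelled libraries and 31.3 ± 12.4 FPKM in the HSC-labelled ones, where mt-Atp6 averaged 27.6 ± 8.57 FPKM in the LSC-labelled and 34.7 ± 25.7 FPKM in the HSC-labelled ones. In the LSC-labelled libraries Gm28437 averaged 11.4 ± 3.21 FPKM beside 15.0 ± 3.10 FPKM of mt-Co3, and Gm28661 11.98 ± 2.95 FPKM beside 22.6 ± 4.27 FPKM of mt-Co2. In the HSC-labelled libraries Gm28437 averaged 11.3 ± 4.92 FPKM beside 13.9 ± 6.64 FPKM of mt-Co3, and Gm28661 10.1 ± 3.15 FPKM beside 24.0 ± 12.4 FPKM of mt-Co2. For the pairs with a larger gap, Gm28438 averaged 2.31 ± 0.660 FPKM in the LSC-labelled and 1.00 ± 0.455 FPKM in the HSC-labelled libraries, far below mt-Nd3. Copies elsewhere in the genome, with at most 97.61% identity, such as Gm13340 on chromosome 2, which covers all of mt-Co1, stood at or below 4.36 FPKM in every library.

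**Figure D2:**
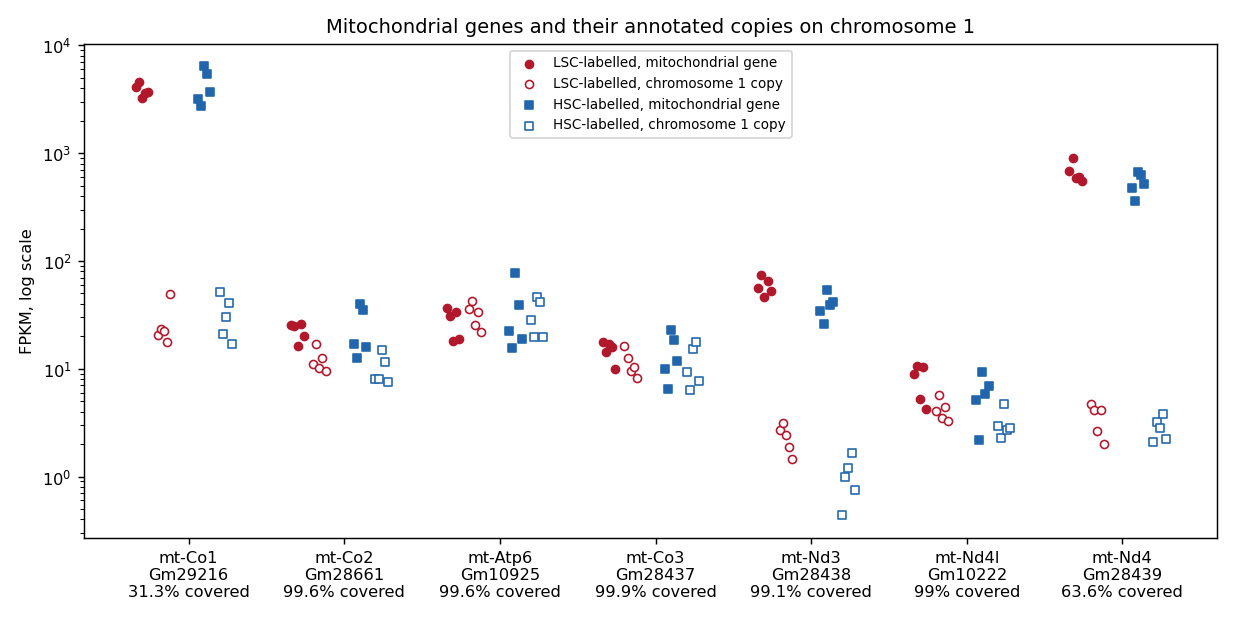
Level in FPKM, on a log scale, of the 7 mt- genes with an annotated copy on chromosome 1 (filled symbols) and of the copy (open symbols), for the LSC-labelled (red circles, left) and HSC-labelled (blue squares, right) libraries. The percentage under each pair is the part of the mt- gene that the copy covers, and the copies of mt-Atp6, mt-Co2, mt-Co3 and mt-Nd4l overlap the levels of their genes in both groups.

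Between the groups, few mitochondrial genes were called, and the 95% intervals of many others were wide, as in -0.06 to 0.72 for mt-Nd1. Of the 13 protein genes, 2 were higher in the LSC-labelled libraries (15.4%), 0 were lower and 11 did not pass the test (limma, adjusted p under 0.05), against 41% of the 13431 genes tested, of which 27.2% were higher and 13.8% lower. The fitted difference was positive for 10 of the 13, of which mt-Co2 turned negative under 3 of the 4 other scalings, with a median of 0.23 on the log2(FPKM + 1) scale and a range of -0.12 to 0.61, where all genes tested had a median of 0.11. No rRNA gene and no tRNA gene was called, with 0 of 2 and 0 of 9 also at an unadjusted p under 0.05, and the exact permutation test on FPKM gave 0 of either class. The count of 2 protein genes became 4 without HSC-labelled library 3, where mt-Nd1 and mt-Cytb joined, and 1 without LSC-labelled library 2. In bulk RNA, fewer cells of a type and less RNA per cell cannot be told apart.

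Complex I, the NADH dehydrogenase at the entry of the respiratory chain, has 7 subunits encoded here, and both called genes belong to it. mt-Nd2 (chrM:3914-4951, plus strand) had 322, 469, 327, 329 and 305 FPKM in LSC-labelled libraries 1 to 5, against 253, 222, 259, 211 and 259 FPKM in HSC-labelled libraries 1 to 5. The groups did not overlap, which held for 1 of the 13 protein genes and for 29.8% of all genes tested, and LSC-labelled library 2 stood above the rest. The fitted difference was 0.53 (SE 0.12, adjusted p = 0.00555, limma).

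mt-Nd3 (chrM:9459-9806, plus strand), which lies inside the copied stretch, had 56.4, 73.5, 46.7, 65.2 and 52.1 FPKM in the LSC-labelled libraries, against 34.0, 26.1, 53.9, 39.0 and 41.3 FPKM in the HSC-labelled ones. The groups overlapped through HSC-labelled library 3, the shallowest. The difference was 0.61 (SE 0.18, adjusted p = 0.0196, limma). This call was lost without LSC-labelled library 2 (adjusted p = 0.0533, limma), with no filter on low values (0.0592), with the replicate block (0.0605), and with quantile scaling (0.0878) or median-of-ratios scaling over the genes tested (0.0926).

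The other 5 subunits of complex I had larger means in the LSC-labelled libraries, and none of them passed the test. mt-Nd1 (chrM:2751-3707), the first mRNA after the rRNAs, had 3345, 4663, 3825, 3325 and 3538 FPKM in the LSC-labelled libraries, against 2098, 2598, 4108, 3353 and 2948 FPKM in the HSC-labelled ones. HSC-labelled library 3 lay above 4 of the 5 LSC-labelled libraries. The difference was 0.33, with an adjusted p of 0.158 (limma), and became 0.45, with an adjusted p of 0.0472, without that library. In the LSC-labelled libraries mt-Nd4 averaged 665 ± 137, mt-Nd5 692 ± 99.8 and mt-Nd4l 7.87 ± 2.96 FPKM. In the HSC-labelled ones they averaged 531 ± 121, 588 ± 63.6 and 5.91 ± 2.63 FPKM, and each of the 3 overlapped between the groups. mt-Nd6, the only protein gene on the minus strand, had 303, 467, 333, 315 and 279.8 FPKM in the LSC-labelled libraries and 292, 275, 308, 303 and 309 FPKM in the HSC-labelled ones. Apart from LSC-labelled library 2, those values stayed within a narrow range. mt-Nd5 and mt-Nd6 overlap at their ends on opposite strands. The strand was not given in the sources used here, so reads of opposite strands cannot be told apart there or along the rest of mt-Nd6. Its level may therefore include RNA of the other strand.

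mt-Cytb (chrM:14145-15288, plus strand), cytochrome b and the one subunit of complex III encoded here, had 3368, 5466, 3605, 3701 and 3545 FPKM in the LSC-labelled libraries, against 2665, 1942, 3383, 3373 and 2782 FPKM in the HSC-labelled ones. LSC-labelled library 1 lay below HSC-labelled libraries 3 and 4, and the other 4 lay above every HSC-labelled library. The difference was 0.48, with a 95% interval of 0.08 to 0.88, and missed the threshold (adjusted p = 0.0543, limma). It passed in 6 of the alternative fits, among them those without HSC-labelled library 3 (adjusted p = 0.0414) and without HSC-labelled library 4 (adjusted p = 0.0433), and over all alternatives in limma the adjusted p ran from 0.0261 to 0.247.

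Complex IV, cytochrome c oxidase, contains mt-Co1, mt-Co2 and mt-Co3. mt-Co1 (chrM:5328-6872, plus strand), its catalytic subunit, had 4080.4, 4622, 3273, 3589 and 3733 FPKM in the LSC-labelled libraries, against 3197, 2715, 6380.0, 5423 and 3705 FPKM in the HSC-labelled ones. HSC-labelled libraries 3 and 4 exceeded all others, and the remaining 3 lay among or below the LSC-labelled ones. The difference was -0.09, with a 95% interval of -0.58 to 0.41 (adjusted p = 0.789, limma), and its sign turned without either of these libraries. mt-Co2 had 16.1 to 26.0 FPKM in the LSC-labelled libraries, and in the HSC-labelled ones it had 39.5 and 35.2 FPKM in libraries 3 and 4 and 12.6 to 17.1 FPKM in the other 3. mt-Co3 had 9.995 to 17.9 FPKM in the LSC-labelled libraries and 6.49 to 23.0 FPKM in the HSC-labelled ones, where libraries 3 and 4 were also the highest. Libraries 3 and 4 were the shallowest of the HSC-labelled group, at 13280000 and 17720000 estimated fragments.

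Complex V, the ATP synthase, contains mt-Atp6 and mt-Atp8, which overlap each other on the genome. mt-Atp6 had 36.7, 30.7, 18.0, 33.7 and 19.0 FPKM in the LSC-labelled libraries, against 22.3, 15.7, 77.9, 38.7 and 18.7 FPKM in the HSC-labelled ones. Library 3 of the HSC-labelled group was the highest for both genes, with 19.0 FPKM of mt-Atp8, where the LSC-labelled libraries had 6.74 to 10.4 FPKM. Neither gene passed the test (adjusted p = 0.828 and 0.916, limma), and both signs turned without that library.

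**Figure D3:**
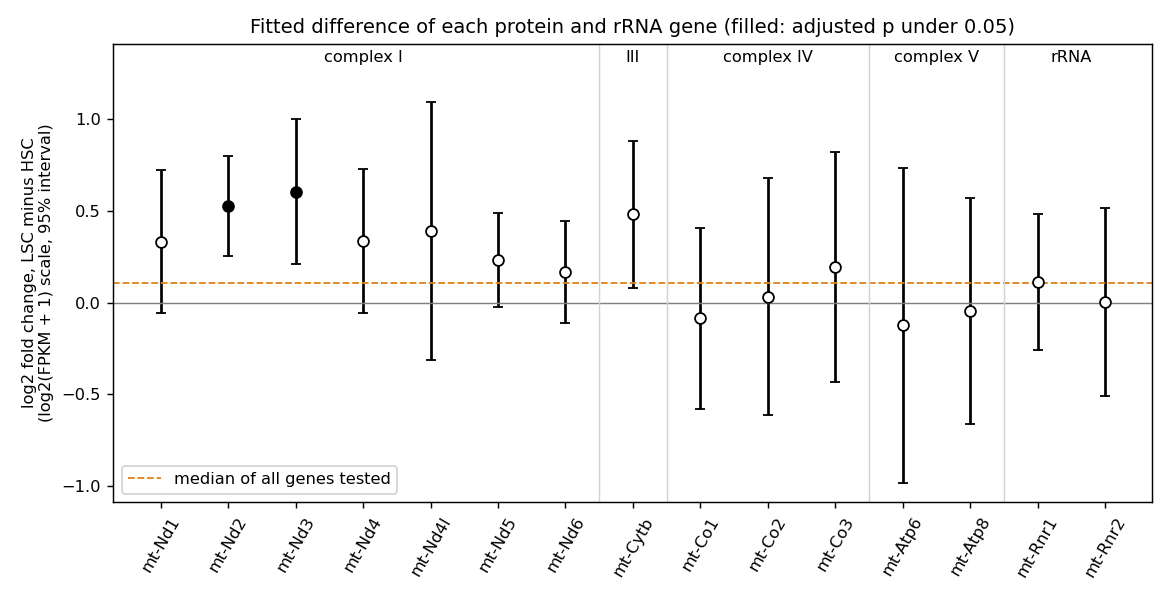
Fitted log2 difference, LSC-labelled minus HSC-labelled, of the 13 protein and 2 rRNA genes on the log2(FPKM + 1) scale, grouped by complex, with 95% intervals from limma. Filled points passed an adjusted p of 0.05, which mt-Nd2 and mt-Nd3 did. The dashed line marks the median of all genes tested, 0.11.

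The share of the FPKM sum in mitochondrial mRNA overlapped between the groups. The 13 protein genes took 2.69%, 3.57%, 2.56%, 2.57% and 2.62% of the FPKM sum in LSC-labelled libraries 1 to 5, against 2.01%, 1.78%, 3.20%, 2.84% and 2.37% in HSC-labelled libraries 1 to 5. The mean was 2.80% ± 0.430 in the LSC-labelled and 2.44% ± 0.582 in the HSC-labelled libraries (SD, n = 5 each). Apart from library 2, the LSC-labelled libraries lay close together, whereas the HSC-labelled ones reached both lower and higher. All mitochondrial genes together took 3.44% to 4.76% in the LSC-labelled libraries and 2.70% to 4.41% in the HSC-labelled ones.

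Within the mitochondrial mRNAs, mt-Co1 took a smaller part and mt-Cytb a larger part of the 13-gene sum in the LSC-labelled libraries. Shares of one sum are not independent of each other, and the p-values that follow are unadjusted, from exact two-sided permutation tests on 25 mitochondrial genes, of which 4 were under 0.05, where 0.00794 is the smallest p that 5 against 5 libraries can give. mt-Co1 made up 31.7%, 26.3%, 25.8%, 28.2% and 29.3% of the 13-gene sum in the LSC-labelled libraries, against 33.2%, 31.3%, 39.9%, 38.5% and 33.0% in the HSC-labelled ones (exact p = 0.0159). One LSC-labelled library, library 1, reached into the HSC-labelled range. mt-Cytb made up 26.1%, 31.1%, 28.4%, 29.1% and 27.9% in the LSC-labelled libraries, against 27.7%, 22.4%, 21.2%, 24.0% and 24.8% in the HSC-labelled ones (exact p = 0.0159). LSC-labelled library 1 lay below HSC-labelled library 1. The ratio of mt-Cytb to mt-Co1 was accordingly 1.02 ± 0.138 in the LSC-labelled and 0.690 ± 0.117 in the HSC-labelled libraries (SD, n = 5 each), with LSC-labelled library 1 (0.825) just below HSC-labelled library 1 (0.833). mt-Nd3 had 0.369% to 0.512% in the LSC-labelled libraries and 0.277% to 0.368% in the HSC-labelled ones, without overlap but with neighbouring ends (exact p = 0.00794). For mt-Nd2 this scale gave 2.55% ± 0.0997 in the LSC-labelled and 2.12% ± 0.527 in the HSC-labelled libraries, with overlapping groups (exact p = 0.143), so its difference in FPKM did not pass relative to the other mitochondrial mRNAs. By complex, the 7 genes of complex I summed to 42.7% ± 1.496 in the LSC-labelled and 40.2% ± 3.68 in the HSC-labelled libraries, and the 3 of complex IV to 28.5% ± 2.42 in the LSC-labelled and 35.5% ± 3.87 in the HSC-labelled libraries. The complex IV share repeats that of mt-Co1, which alone averaged 28.3% ± 2.39 in the LSC-labelled and 35.2% ± 3.79 in the HSC-labelled libraries.

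**Figure D4:**
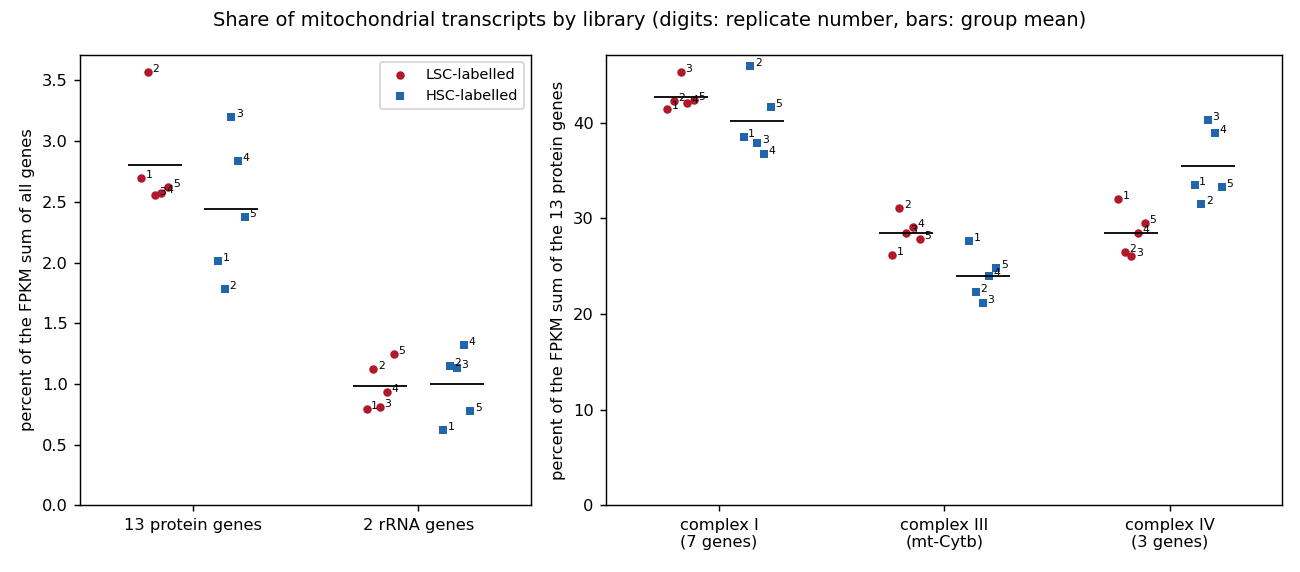
Left, share of the FPKM sum of all genes taken by the 13 protein and by the 2 rRNA genes. Right, share of the 13-gene sum taken by complexes I, III and IV. Each point is a library with its replicate number, LSC-labelled in red and HSC-labelled in blue, and bars are group means. On the right, complex III is mostly higher and complex IV, nearly all of it mt-Co1, mostly lower in the LSC-labelled libraries, with an overlap in each.

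The 2 rRNA genes encode the RNAs of the small (mt-Rnr1) and large (mt-Rnr2) subunit of the mitochondrial ribosome. mt-Rnr2 (chrM:1094-2675, plus strand) had 3530.4, 5182, 3786, 4352 and 5719 FPKM in the LSC-labelled libraries, against 2788, 5248, 5413, 6266 and 3425 FPKM in the HSC-labelled ones. mt-Rnr1 (chrM:70-1024, plus strand) had 261, 346, 228, 263 and 349.6 FPKM in the LSC-labelled libraries, against 205, 364, 247, 291 and 239 FPKM in the HSC-labelled ones. In both genes the range of the HSC-labelled libraries enclosed that of the LSC-labelled ones. The differences were 0.00 with a 95% interval of -0.51 to 0.52 for mt-Rnr2 (adjusted p = 0.991, limma) and 0.11 with an interval of -0.26 to 0.48 for mt-Rnr1 (adjusted p = 0.629, limma).

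mt-Rnr1 and mt-Rnr2 are transcribed together, yet their levels per length were far apart. The ratio of mt-Rnr2 to mt-Rnr1 was 13.5, 15.0, 16.6, 16.6 and 16.4 in the LSC-labelled libraries, against 13.6, 14.4, 21.9, 21.5 and 14.3 in the HSC-labelled ones. HSC-labelled libraries 3 and 4, which also led in mt-Co1, stood above every other library. The 2 rRNA genes took 0.981% ± 0.199 of the FPKM sum in the LSC-labelled libraries and 1.00% ± 0.290 in the HSC-labelled ones (SD, n = 5 each).

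Transfer RNA genes are 59 to 75 bases long, so that 1 fragment on 69 bases was worth 0.411 to 1.09 FPKM, depending on the library. Of the 16 in the table, 9 passed the filter on low values and mt-Tv did not, though it averaged 1.06 FPKM in the LSC-labelled libraries and 0.644 FPKM in the HSC-labelled ones. The other 6 (mt-Ti, mt-Tw, mt-Tn, mt-Ts1, mt-Tr and mt-Tl2) never exceeded 1.78 FPKM and were at 0 in 6 to 9 of the 10 libraries. A share of 88.4% to 95.6% of the tRNA sum of each library came from mt-Tq and mt-Tp. The strand was not given in the sources used here, and the protocol reverse-transcribed mRNA. Whether fragments on a tRNA gene came from the finished tRNA, a longer RNA or the other strand therefore cannot be told. The levels below are those of the gene positions.

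mt-Tq, whose sequence is given above, had 130.4, 182, 154, 71.2 and 127 FPKM in the LSC-labelled libraries, against 137, 126, 248, 233 and 154 FPKM in the HSC-labelled ones. Its neighbours were far lower. mt-Ti was at 0 in 8 libraries, and mt-Tm had 1.21 to 6.81 FPKM in the LSC-labelled libraries and 3.14 to 7.36 FPKM in the HSC-labelled ones. The mt-Tq values rest on an estimated 121.5 to 413.0 fragments in the LSC-labelled libraries and 212.6 to 292.6 in the HSC-labelled ones. Its difference in FPKM was -0.44 with a 95% interval of -1.02 to 0.14 and did not pass the test (adjusted p = 0.206, limma).

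Relative to the 13-gene sum, mt-Tq stood at 1.01%, 1.04%, 1.21%, 0.559% and 1.00% in the LSC-labelled libraries, against 1.42%, 1.45%, 1.55%, 1.65% and 1.38% in the HSC-labelled ones. On this scale the groups did not overlap and LSC-labelled library 4 was the lowest (exact p = 0.00794, unadjusted, among the 25 genes above). mt-Tp had 176, 138, 174, 111 and 169 FPKM in the LSC-labelled libraries, against 129, 169.7, 137, 125 and 144 FPKM in the HSC-labelled ones, with overlap and an adjusted p of 0.556 (limma). The 7 other tested tRNA genes, which are mt-Tf, mt-Tl1, mt-Tm, mt-Ta, mt-Tc, mt-Te and mt-Tt (for phenylalanine, leucine, methionine, alanine, cysteine, glutamate and threonine), averaged 1.91 to 5.66 FPKM in the LSC-labelled libraries and 1.59 to 6.00 FPKM in the HSC-labelled ones. Each rested on at most 20 estimated fragments in a library, and the 95% intervals of their differences were wide, as in -1.49 to 1.05 for mt-Tt.

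Among nuclear genes that serve the expression of the mitochondrial genome, most of the called ones rose in the LSC-labelled group. Of 98 tested genes for transcription, RNA processing, RNA modification, DNA upkeep, translation factors and biogenesis, 42 rose and 5 fell in the LSC-labelled libraries, or 48%, against the 41% of all genes. With quantile scaling the counts were 31 higher and 9 lower, and over all genes 2786 higher and 2833 lower in place of 3654 and 1859. Whether the nuclear and mitochondrial genes differ in how often they were called was not tested.

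Among 9 transcription genes, 2 were higher (22.2%, against 27.2% of all genes) and 0 lower. Tfam, which packages mitochondrial DNA and starts its transcription, had 11.5, 17.9, 16.1, 15.6 and 16.2 FPKM in the LSC-labelled libraries, against 8.82, 11.4, 8.94, 8.47 and 10.2 FPKM in the HSC-labelled ones. The groups did not overlap, and the nearest values were LSC-labelled library 1 and HSC-labelled library 2. The difference was 0.63 (SE 0.12, adjusted p = 0.00177, limma). Tefm, the elongation factor, averaged 17.7 ± 2.11 FPKM in LSC-labelled and 12.7 ± 1.15 FPKM in HSC-labelled libraries (adjusted p = 0.00478, limma). Polrmt, the polymerase, averaged 11.8 ± 3.15 FPKM in LSC-labelled and 10.1 ± 1.60 FPKM in HSC-labelled libraries, and Tfb2m, which opens the promoter, 11.7 ± 1.33 FPKM in LSC-labelled and 10.6 ± 1.03 FPKM in HSC-labelled libraries, and neither passed (adjusted p = 0.426 and 0.350, limma).

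Of 21 genes for RNA processing and stability, 12 were higher (57.1%, against 27.2% of all genes) and 0 lower. The 12 became 8 with no filter or without LSC-labelled library 2 or 3. They became 9 with quantile scaling or median-of-ratios scaling over tested genes, and 14 without HSC-labelled library 2. Fastkd2, an RNA-binding protein of mitochondrial RNA granules, averaged 12.3 ± 1.36 FPKM in LSC-labelled and 7.11 ± 0.731 FPKM in HSC-labelled libraries, and Ptcd3, a protein of the mitochondrial ribosome, 42.4 ± 3.32 FPKM in LSC-labelled and 26.0 ± 2.22 FPKM in HSC-labelled libraries, both without overlap. Lrpprc, which stabilises mitochondrial mRNAs, averaged 27.6 ± 3.52 FPKM in the LSC-labelled libraries and 20.02 ± 1.89 FPKM in the HSC-labelled ones (adjusted p = 0.00625, limma). Its partner Slirp was listed at 0.208 ± 0.0732 FPKM in the LSC-labelled and 0.0995 ± 0.0820 FPKM in the HSC-labelled libraries, below the filter, and Grsf1, of the RNA granules, did not pass (20.3 ± 2.43 FPKM in LSC-labelled and 19.0 ± 9.02 FPKM in HSC-labelled libraries, adjusted p = 0.565, limma).

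For rRNA and tRNA modification, 12 of 26 genes were higher (46.2%, against 27.2% of all genes) and 1 was lower. The 12 became 8 without the 3 shallowest libraries and 15 without HSC-labelled library 5. Qtrt1, a subunit of the enzyme that puts queuine into tRNAs, averaged 37.3 ± 3.14 FPKM in LSC-labelled and 22.1 ± 3.23 FPKM in HSC-labelled libraries, and Mrm3, a methyltransferase of the large rRNA, 24.5 ± 4.16 FPKM in LSC-labelled and 14.6 ± 1.95 FPKM in HSC-labelled libraries. Cdk5rap1, which modifies mitochondrial tRNAs next to the anticodon, averaged 8.79 ± 2.74 FPKM in the LSC-labelled libraries and 14.9 ± 4.93 FPKM in the HSC-labelled ones (difference -0.69, adjusted p = 0.0327, limma). That call was lost when any of 6 libraries (LSC-labelled 1, 2 or 4, HSC-labelled 1, 4 or 5) was left out.

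Of 19 genes for upkeep of mitochondrial DNA, 3 were higher and 3 lower, or 31.6% called, against 41% of all genes. The 3 lower calls became 1 under median-of-ratios scaling and 5 under each of the other 3 scalings. Twnk, the replicative helicase, had 11.2, 9.82, 11.1, 8.95 and 9.97 FPKM in the LSC-labelled libraries, against 5.99, 5.97, 5.28, 5.66 and 5.93 FPKM in the HSC-labelled ones. The groups were well apart, and the difference was 0.72 (SE 0.08, adjusted p = 6.27e-05, limma). Atad3a, a membrane ATPase linked to nucleoids, averaged 79.1 ± 14.6 FPKM in LSC-labelled and 50.3 ± 8.54 FPKM in HSC-labelled libraries. Rrm2b, a ribonucleotide reductase subunit, averaged 2.13 ± 0.306 FPKM in LSC-labelled and 3.24 ± 0.373 FPKM in HSC-labelled libraries, and Dna2, a nuclease and helicase that also serves the nucleus, 17.9 ± 1.01 FPKM in LSC-labelled and 22.5 ± 1.64 FPKM in HSC-labelled libraries, both lower in the LSC-labelled libraries without overlap. The call of Dna2 was lost under median-of-ratios scaling, and that of Atad3a without the 3 shallowest libraries.

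Translation factors and biogenesis regulators were higher in part. Of 15 translation factors, 9 were higher (60%, against 27.2% of all genes) and 0 lower. They became 5 higher and 0 lower without HSC-labelled library 4 or with no filter, 5 higher and 2 lower with quantile scaling or median-of-ratios scaling over tested genes, and 4 higher and 1 lower without the 3 shallowest libraries. Among the 9 were Tufm, the elongation factor Tu (79.5 ± 4.31 FPKM in LSC-labelled and 46.8 ± 8.71 FPKM in HSC-labelled libraries) and Mrrf, which recycles ribosomes (13.5 ± 1.46 FPKM in LSC-labelled and 8.40 ± 1.44 FPKM in HSC-labelled libraries). Of 8 biogenesis regulators, 4 were higher and 1 lower (62.5% called, against 41% of all genes). The 4 became 2 with no filter, with quantile scaling, with median-of-ratios scaling over tested genes and without the 3 shallowest libraries. Myc, a transcription factor with many nuclear genes of mitochondria among its targets, averaged 245.5 ± 21.3 FPKM in LSC-labelled and 136.5 ± 29.5 FPKM in HSC-labelled libraries (difference 0.87, adjusted p = 0.00111, limma), and Pprc1, a coactivator of the same programme, 17.1 ± 3.31 FPKM in LSC-labelled and 9.49 ± 3.05 FPKM in HSC-labelled libraries. The call of Pprc1 was lost without the 3 shallowest libraries. Esrra, a nuclear receptor for genes of energy metabolism, was lower, at 2.90 ± 0.586 FPKM in the LSC-labelled and 3.94 ± 0.411 FPKM in the HSC-labelled libraries, and its call was lost when any of 6 libraries (LSC-labelled 2, 3 or 4, HSC-labelled 1, 2 or 5) was left out.

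Most of the nuclear subunits that assemble with the mitochondrial proteins rose in the LSC-labelled group. Of 44 tested, 31 were higher (70.5%, against 27.2% of all genes) and 0 lower, with 13 not called, and the difference was positive for all 44, with a median of 0.42. With quantile scaling 28 were called higher and 41 were positive, and with median-of-ratios scaling over tested genes 23 were called higher and 40 were positive, with 0 called lower under either. Without the 3 shallowest libraries 30 were higher and 0 lower. No member was lower at an unadjusted p under 0.05. In complex I, 9 of 10 were higher, with Ndufs7 at 263 ± 11.4 FPKM in LSC-labelled and 166 ± 24.6 FPKM in HSC-labelled libraries. In complex III, 6 of 9 were higher, with Uqcr11 at 520.1 ± 38.4 FPKM in LSC-labelled and 311 ± 68.95 FPKM in HSC-labelled libraries. In complex IV, 6 of 10 were higher, with Cox7b at 215 ± 18.6 FPKM in LSC-labelled and 154 ± 28.6 FPKM in HSC-labelled libraries, and in complex V, 10 of 15, with Atp5g1 at 81.9 ± 3.28 FPKM in LSC-labelled and 46.6 ± 7.89 FPKM in HSC-labelled libraries. The count of complex V became 6 without LSC-labelled library 2, 3 or 5, and 6 with no filter. That of complex IV became 4 in the same fits and under either median-of-ratios scaling, and 7 without LSC-labelled library 1 or HSC-labelled library 2. Of 15 other proteins of the mitochondrial membranes and matrix, 13 were higher (86.7%, against 27.2% of all genes) and 0 lower. The 13 became 9 with median-of-ratios scaling over tested genes. Among the 13 were the chaperonins Hspd1 (276 ± 37.4 FPKM in LSC-labelled and 150.3 ± 17.6 FPKM in HSC-labelled libraries) and Hspe1 (229 ± 45.9 FPKM in LSC-labelled and 110.3 ± 23.9 FPKM in HSC-labelled libraries).

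The summed levels set the genomes side by side in each complex. The nuclear partners of complex IV summed to 3669 to 4317 FPKM in the LSC-labelled libraries and 2468 to 3600.3 FPKM in the HSC-labelled ones, without overlap, as in the other 3 complexes. The mitochondrial genes of complex IV summed to 3306 to 4661 FPKM in the LSC-labelled and 2734 to 6442 FPKM in the HSC-labelled libraries. Nearly all of this sum was mt-Co1, with 3273 to 4622 FPKM in the LSC-labelled and 2715 to 6380 FPKM in the HSC-labelled libraries. The other genes of the sum, mt-Co2 and mt-Co3, lie inside the copied stretch and their levels are uncertain, so the ratio that follows is in effect that of mt-Co1. The ratio of mitochondrial to nuclear sum in complex IV was 1.12, 1.08, 0.767, 0.973 and 0.942 in the LSC-labelled libraries, against 0.983, 0.790, 2.16, 2.22 and 1.04 in the HSC-labelled ones. HSC-labelled libraries 3 and 4 again stood above all others. In complex I the same ratio was 3.65 to 4.81 in the LSC-labelled libraries, and in the HSC-labelled ones it was 6.02 and 6.08 in libraries 3 and 4 and 3.29 to 3.80 in the others. In complex III it was 1.43 to 2.20 in the LSC-labelled and 0.995 to 2.52 in the HSC-labelled libraries. There LSC-labelled library 2 (2.20) lay above HSC-labelled library 3 (2.07). In complex V, whose mitochondrial genes all lie inside the copied stretch, it was 0.00631 to 0.0132 in the LSC-labelled libraries. The HSC-labelled ones had 0.0291 and 0.0188 in libraries 3 and 4 and 0.00693 to 0.0105 in the others.

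**Figure D5:**
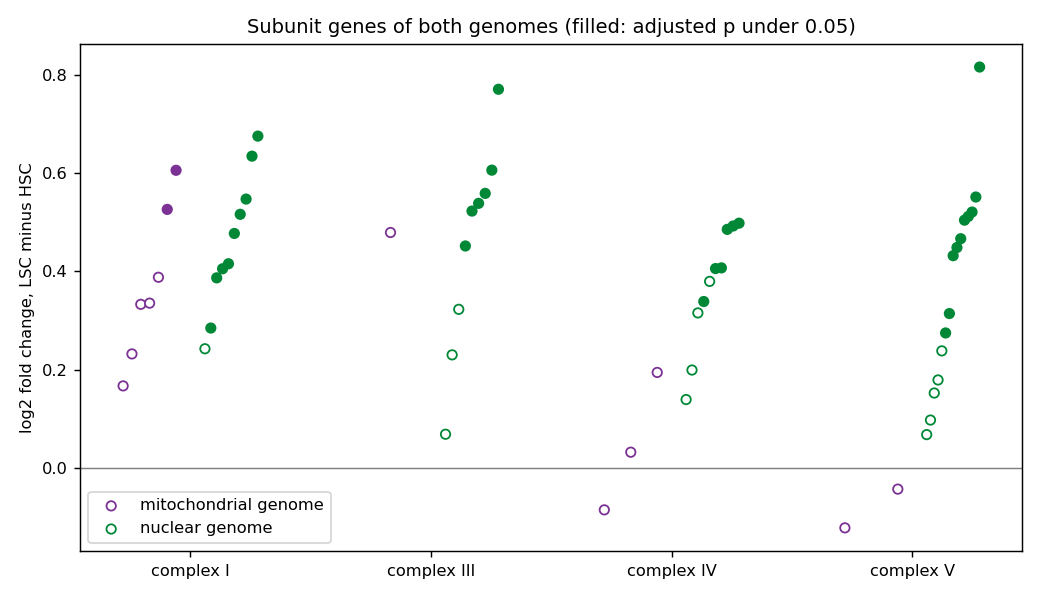
Fitted log2 difference, LSC-labelled minus HSC-labelled, of subunit genes of the mitochondrial (purple) and nuclear (green) genome for each respiratory complex, in order of size. Filled points passed an adjusted p of 0.05 in limma. All 44 nuclear subunits lie above 0 as deposited (41 with quantile scaling and 40 with median-of-ratios scaling over tested genes), and the mitochondrial genes of complexes IV and V lie between -0.12 and 0.19.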

How the data were processed

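RNA of sorted mouse bone marrow cells was extracted in total, and mRNA was reverse-transcribed and amplified by Geo-seq, a method for small samples, before library building with a transposase kit, per the labels' protocols. The submitters' processing notes name mm10 as build and list DESeq2, HTSeq, Cufflinks 2.1.1 and Bowtie 0.12.9 without a role for any. Not given in the sources used here were the strand setting, the annotation and the treatment of fragments that match several places. The values were deposited by the authors as FPKM, scaled by depth and gene length, in 1 table of 51456 IDs and 10 libraries, of which 51246 matched GENCODE M21 and 210 did not. Libraries were grouped by their titles.

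Depth was estimated from FPKM steps times gene length. In a library, 60.8% to 77.0% of low values were whole fragments within 0.05 of a step and 93.2% to 96.3% a multiple of 0.5, so that whole reads could not be recovered and a count model was not used. Intervals and estimated fragments cover counting or library spread only.

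The 13431 genes that reached 1 FPKM in 5 or more libraries were fitted with limma 3.58.1 (R 4.3.3) on log2(FPKM + 1) (group only, mean trend, two-sided) and adjusted by Benjamini-Hochberg over all of them, with a threshold of 0.05. Differences are LSC-labelled minus HSC-labelled on that scale, which understates changes of low genes. Exact permutation tests used all 252 splits. Copies were sought with blastn 2.17.0+ (at least 90% identity over 100 bases) among GENCODE transcripts. Python 3.11.15, numpy 2.4.6, pandas 2.3.3, scipy 1.17.1 and matplotlib 3.10.9 were used, and the fit was tested on simulated data. The mt- genes and gene lists were chosen with earlier results of these data known. Named were all mt- protein and rRNA genes, tRNAs averaging 1 FPKM in a group, a fixed set of regulators, and the called genes of largest change per list. Alternatives were other pseudocounts, filters, scalings, a replicate block, no variance trend and leaving out libraries. Scaling over the tested genes and leaving out the 3 libraries under 18000000 fragments were added after the data were seen.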

Additional observations from a re-analysis of the deposited data

Results flagged for a closer look

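In groups of 5 libraries a value was set apart when its gap to the nearest other exceeded 0.710 of the group's range, which chance does in about 1 group in 20. This held for 11 of 158 groups looked at. LSC-labelled library 2 was set apart for mt-Nd2 (468.7 FPKM), mt-Nd6 (466.9 FPKM) and mt-Cytb (5466 FPKM). The same library was set apart for the FPKM sum of the complex I genes (7434) and that of all 13 protein genes (17600.0). It was also set apart for the share of the 13 genes in the FPKM sum (3.57%) and the ratio of mitochondrial to nuclear complex I sums (4.81). Each of these values was the highest of its group. These values share one library and are not independent. The complex I share of the 13-gene sum was highest in LSC-labelled library 3 (45.3%), and the tRNA share of the FPKM sum was lowest in LSC-labelled library 4 (0.0395%). Hspd1 was lowest in LSC-labelled library 1 (212 FPKM) and Myc in HSC-labelled library 3 (85.8 FPKM).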

How the results depend on the processing

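The limits are the depth, since most tRNA genes rest on at most 20 estimated fragments, the copies on chromosome 1, and libraries that stand apart. The calls over all genes tested numbered 5513, and 3657.0 when only genes averaging 5 FPKM were kept, which leaves fewer to test. The 2 called protein genes became 1 with no filter, 1 with median-of-ratios scaling over tested genes, 1 with the replicate block, 4 without the 3 shallowest libraries, and 1 to 4 when each library was left out in turn. Deviations of same-numbered libraries from their group means correlated at -0.29 to 0.225, and 2 of the 5 LSC-labelled libraries correlated best with their own number. Whether the numbers pair the libraries cannot be told from these correlations. rRNA and tRNA genes had 0 calls in every fit across all genes, and the regulators 32 to 51. Median differences of all genes were 0.11 as deposited, -0.02 with quantile and -0.0082 with median-of-ratios scaling over tested genes. Signs turned only for genes called in neither fit, and the cause was not tested. With quantile scaling mt-Co2 was at -0.093, mt-Ta at -0.095 and Tfb2m at -0.0059. Scaled to nuclear protein genes, mt-Co2 was at -0.010 and mt-Rnr2 at -0.040. With median-of-ratios scaling over tested genes, mt-Co2 was at -0.10, mt-Rnr1 at -0.028, mt-Rnr2 at -0.14, mt-Ta at -0.030, mt-Tp at -0.029 and Tfb2m at -0.0072. Without the 3 shallowest libraries, mt-Co1 was at 0.25, mt-Atp8 at 0.37, mt-Atp6 at 0.36, mt-Ta at -0.0090, mt-Tc at 0.020, mt-Tp at -0.0092 and Polrmt at -0.016. As a plain FPKM difference, mt-Co2 was at -1.47, mt-Rnr2 at -114 and mt-Ta at -0.56. In percent of the 13-gene sum, mt-Co2 was at -0.026, mt-Co3 at -0.00026, mt-Nd5 at -0.023, mt-Nd6 at -0.15, mt-Rnr1 at -0.29, mt-Rnr2 at -6.49, mt-Tl1 at -0.00092, mt-Ta at -0.0097 and mt-Tp at -0.12. Leaving out each library in turn gave -0.23 to 0.077 for mt-Co1, -0.15 to 0.24 for mt-Co2, -0.20 to 0.21 for mt-Atp8, -0.33 to 0.23 for mt-Atp6, -0.025 to 0.39 for mt-Co3, -0.16 to 0.13 for mt-Rnr2, -0.32 to 0.14 for mt-Tm, -0.32 to 0.29 for mt-Ta, -0.19 to 0.19 for mt-Tc and -0.58 to 0.084 for mt-Tt.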
